A study of Homo sapiens with 6 samples.

Results

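The 35 genes described here make the machinery that copies DNA and the regulators that carry a cell from G1 into S phase, and their transcripts were compared between cells given a cAMP analogue and untreated cells. Members were chosen by symbol from a list of gene names, as every probe set to which the platform annotation gives 1 symbol and that symbol is on the list. This gave 55 probe sets of the 22215 analysed. A filter on low signal (mean log2 signal over the 6 arrays above 5.51, a signal of 45.5) kept 52 of these probe sets, for 34 of the 35 genes, out of 13329 probe sets and 7927 genes kept in all. Each gene is shown by its kept probe set with the highest mean log2 signal, and its other kept probe sets are given where the gene is described. The exception is CHAF1B, whose only probe set was below the filter.

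The treated group was NCI-H295A cells kept for 18 h with 8-Br-cAMP, a membrane-permeant form of cAMP, at 1 mM (3 arrays, numbered 1 to 3). The control group was the same cells without the analogue (3 arrays, numbered 1 to 3). NCI-H295A is a line grown from a human adrenocortical tumour and makes steroids. All plates were grown with 2% fetal calf serum, insulin and selenium. The labels do not say whether plates of a group were separate cultures, so the spread between arrays may be technical, and p-values measure only that spread.

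In each cell cycle an origin of replication is first licensed: the origin recognition complex and CDC6 load the MCM2 to MCM7 ring onto DNA. CDC7 kinase, MCM10, CDC45 and the GINS complex then turn the ring into a moving helicase, and polymerases follow, held to DNA by the PCNA clamp. Many genes of these steps are E2F targets, transcribed as cyclin E and its kinase release E2F from the retinoblastoma protein. In the adrenal cortex, cAMP is the messenger of ACTH, which drives steroid synthesis, and its effect on proliferation depends on the setting.

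The promoters of 4 origin genes are shown because they hold more E2F motif matches than most of the list. The search covered 250 bases before to 50 after the RefSeq start of each gene (GRCh38.p14), on both strands, for TTTCCCGC, TTTGGCGC, TTTCGCGC and TTTGCCGC, with overlapping matches counted as 1. A window was found for 31 of the 35 genes (not for MCM4, MCM5, CCNE2 and RPA3), and 16 of the 31 held at least 1 match, against 3.99% of the 27305 genes in the table. The windows of MCM6, MCM7, MCM3, CDC7 and E2F1 held 2 matches each. Of these 5, the 4 with the highest mean log2 signal are printed 5′ to 3′ from 200 bases before to 10 after the start, with the matches in capitals. They lie at chr2:135876434-135876643 (minus strand), chr7:100101388-100101597 (minus strand), chr6:52284733-52284942 (minus strand) and chr1:91500912-91501121 (plus strand).
MCM6: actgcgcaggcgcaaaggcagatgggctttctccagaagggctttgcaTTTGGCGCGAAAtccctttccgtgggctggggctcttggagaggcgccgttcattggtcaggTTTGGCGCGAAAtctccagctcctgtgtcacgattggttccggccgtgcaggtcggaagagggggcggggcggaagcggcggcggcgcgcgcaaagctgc
MCM7: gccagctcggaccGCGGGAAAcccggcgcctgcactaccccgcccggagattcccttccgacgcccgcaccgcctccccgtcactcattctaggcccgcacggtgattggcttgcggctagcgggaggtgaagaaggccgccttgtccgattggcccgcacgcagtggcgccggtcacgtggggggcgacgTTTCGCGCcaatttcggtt
MCM3: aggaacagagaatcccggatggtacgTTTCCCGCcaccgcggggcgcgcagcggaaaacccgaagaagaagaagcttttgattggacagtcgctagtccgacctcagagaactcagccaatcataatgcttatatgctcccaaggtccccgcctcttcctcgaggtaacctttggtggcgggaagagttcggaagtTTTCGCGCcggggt
CDC7: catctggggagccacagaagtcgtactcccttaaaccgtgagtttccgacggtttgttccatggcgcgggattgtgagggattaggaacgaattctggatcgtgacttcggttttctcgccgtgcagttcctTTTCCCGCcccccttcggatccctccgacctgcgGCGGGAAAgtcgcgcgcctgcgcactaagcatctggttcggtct
In MCM6 both matches read TTTGGCGCGAAA, with first bases at positions -152 and -90 relative to the start. The full cAMP response element TGACGTCA was found in the windows of MCM10 and RFC3, or 6.45% of the 31 genes, against 2.25% of all genes. Its core TGACG, which lies within the full element, was found in 16 of the 31 genes, against 28.4% of all genes. A match is a stretch of letters and not a measured binding site. The 16 genes with an E2F match had a median log2 difference, 8-Br-cAMP minus control, of -0.48, 0.21 and 0.11 in pairs 1, 2 and 3, and the 14 kept genes with none had -0.24, 0.22 and 0.23.

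The arrays numbered 1 stood apart from the other 4, which bears on every value below. The actin 3'/5' signal ratio, which is higher where RNA is less intact, was 38.8 on 8-Br-cAMP 1 and 5.72 on control 1, against 1.93 to 2.41 on the other 4 arrays. Same-numbered arrays of the 2 groups deviated together from their group means (correlations of 0.603, 0.378 and 0.538 across kept probe sets). Arrays 2 and 3 also did so across numbers (0.547 for 8-Br-cAMP 2 with control 3, 0.312 for 8-Br-cAMP 3 with control 2). The correlations thus join the number 1 arrays but cannot show which of arrays 2 and 3 belong together. Arrays are paired by number, as pairs 1, 2 and 3. Differences were fitted with limma over all 6 arrays, again with the number as a replicate block (the paired fit), and again with both number 1 arrays left out (the fit of arrays 2 and 3). Precision in that last fit is limited by its having 2 arrays a group. All 9 adrenocortical marker genes tested were above the filter, and their summed signal was 27158.6 to 54390.3 on 8-Br-cAMP arrays and 8215.7 to 27764.2 on control arrays. NR5A1 (58.6 to 115.2 over all arrays) and MC2R (21.1 to 91.9) were dim among them, and for both the groups overlapped. The groups also overlapped for STAR, CYP17A1, HSD3B2 and INHA, through control 1, but not for CYP11A1, FDX1 and SCARB1. The summed signal of 5 chromaffin markers was 172.7 to 292.9 on 8-Br-cAMP arrays and 164.7 to 318.6 on control arrays. CHGB, the 1 chromaffin marker above the filter, had 87.1 to 216.6 over all arrays. Markers of leukocytes (3 of 4 measured, sums of 53.3 to 211.5 after 8-Br-cAMP and 60.2 to 90.8 in controls) and of fibroblasts (4 of 4, sums of 227.8 to 286.6 after 8-Br-cAMP and 188.5 to 334.1 in controls) were likewise low. Above the filter among them were CD3E (39.3 to 122.9 over all arrays), COL1A1 (96 to 167.4) and DCN (83.5 to 116.2). These signals were not far from that of NR5A1 (58.6 to 115.2). Markers of endothelium (3 of 3) summed to 265 to 401.3 after 8-Br-cAMP and 90.6 to 150.8 in controls. Of these, VWF had 292.3, 224.5 and 289.2 after 8-Br-cAMP and 13.2, 17.8 and 123.8 in controls. PECAM1 had 104.6, 36.4 and 29.2 after 8-Br-cAMP and 65.9, 71.9 and 24.3 in controls, and CDH5 was at most 11.5 on any array. The part of other cell types in the results was not tested.

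No replication gene passed the test when all 6 arrays were fitted. Among the 34 measured genes 0 rose and 0 fell at an adjusted p under 0.05, where 0% of all genes passed in either direction. At an unadjusted p under 0.05, FEN1 was higher and PRIM1 lower, 1 of 34 each way, where 4.09% of all genes were higher and 7.86% lower. The paired fit also called 0 members in either direction, while it called 1.73% of all genes higher and 1.96% lower. At an unadjusted p under 0.05 that fit gave MCM4, RRM1 and FEN1 as higher (7.8% of all genes) and ORC5 and PRIM1 as lower (14.6%).

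The pairs differed in direction. The median log2 difference of the 34 genes was -0.38 in pair 1, 0.21 in pair 2 and 0.15 in pair 3, and the medians of all 7927 genes were -0.03, -0.19 and -0.16. Higher after 8-Br-cAMP were 11 of the 34 genes in pair 1 and 24 in each of pairs 2 and 3. The shares of all genes that were higher in these pairs were 48.3%, 37.9% and 38.6%. Of the 34 genes, 14 were higher in pairs 2 and 3 but lower in pair 1 (41.2%, against 12.7% of all genes). The reverse held for GINS2 and CHAF1A only, and the share of all genes with that reverse pattern was not counted. By the brightest probe sets, a common direction in all 3 pairs was seen upward for 7 genes (MCM4, RRM1, E2F1, POLA2, RFC2, FEN1 and LIG1, against 15.2% of all genes). A common downward direction was seen for 5 (MCM7, ORC5, PRIM1, RFC4 and UNG, against 29.5%). MCM4, RRM1, E2F1, RFC2 and FEN1 each had another kept probe set that was lower in pair 1, for E2F1 at only -0.008. The other kept probe sets of MCM7 and ORC5 were lower in every pair. Whether pair 1 differs from the others beyond error was not tested, as it is a single pair.

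**Figure D1:**
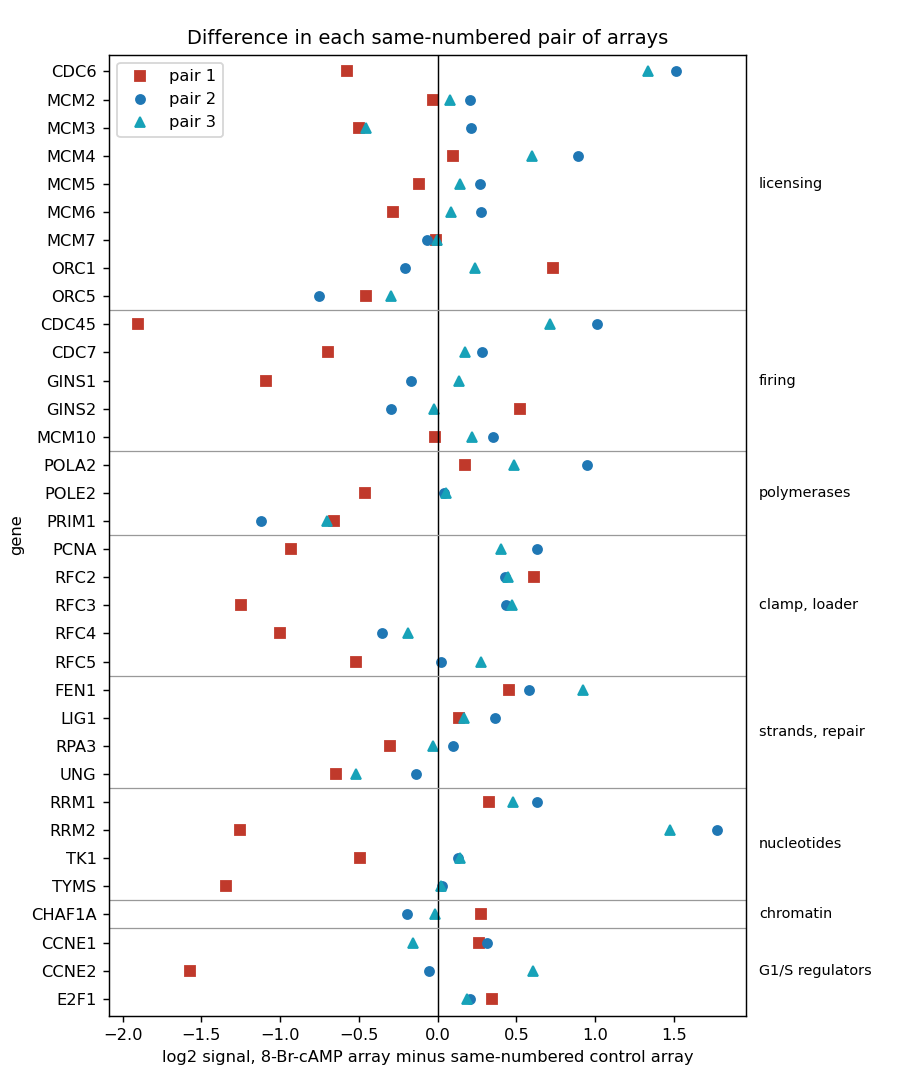
Log2 signal difference, 8-Br-cAMP array minus same-numbered control array (x axis), for the 34 genes with a kept probe set (y axis), ordered by role, with 1 symbol per pair of arrays. Red squares (pair 1) lie furthest left for 25 of the 34 genes (73.5%, against 36.6% of all genes).

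Control 1 stood above the other controls for most of these genes. Its signal was above both other controls for 29 of the 34 genes (85.3%, against 41.5% of all genes), by a median log2 difference of 0.54 from the mean of controls 2 and 3, against -0.01 over all genes. 8-Br-cAMP 1 stood above both other treated arrays for 18 genes (52.9%, against 52.5% of all genes) and below both for 13 (38.2%, against 40.5%). Its median difference was 0.11, against 0.17 over all genes. Control 1 was the highest of all 6 arrays for 14 of the 34 genes (41.2%, against 19.6% of all genes). The part of RNA quality in this was not tested. In RNA from a whole plate, a smaller share of cells in S phase and less of a transcript per cell cannot be told apart.

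**Figure D2:**
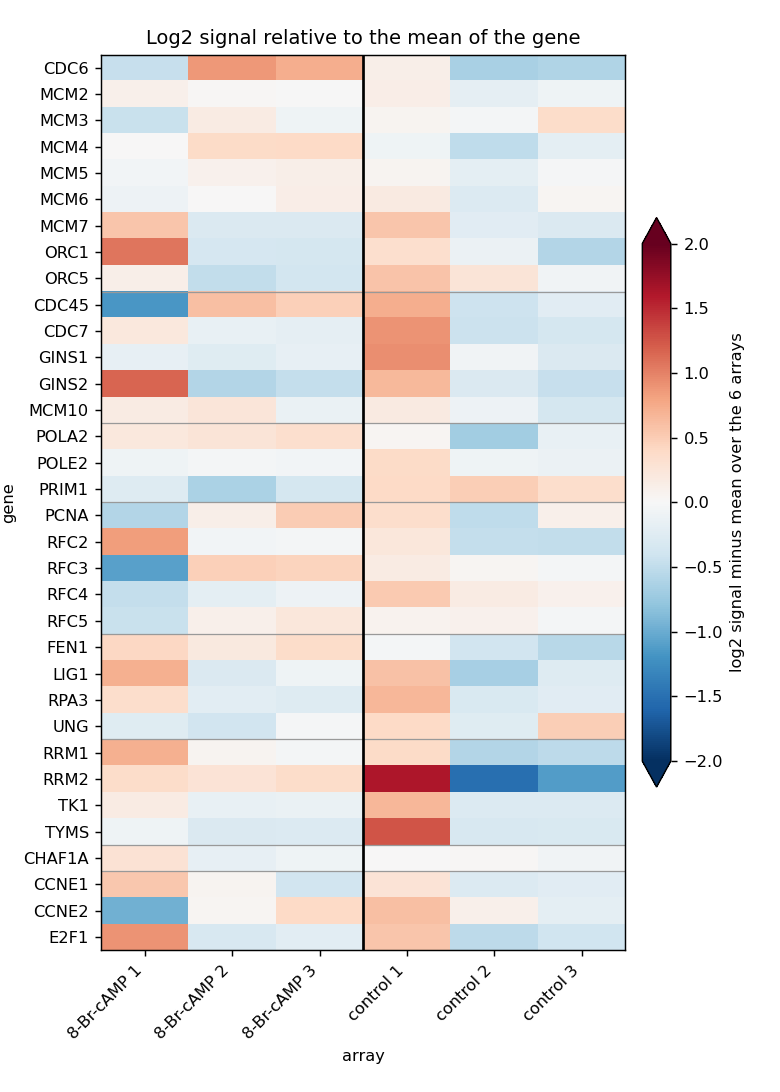
Log2 signal of each of the 34 genes (rows) on each array (columns, 8-Br-cAMP left and control right of the black line), minus the mean of that gene over the 6 arrays; red is above and blue below that mean. The control 1 column is mostly red, with RRM2 and TYMS deepest, while controls 2 and 3 are mostly blue.

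With both number 1 arrays left out, 8 of 34 genes rose and 2 fell, while 12.8% of all genes rose and 20.5% fell. The risers were CDC6, MCM4, CDC45, POLA2, RFC3, FEN1, RRM1 and RRM2, and the genes that fell were ORC5 and PRIM1. The median log2 difference of the list on these 4 arrays was 0.16, against -0.18 over all genes, and single genes ran from -0.91 to 1.63. All treated signals were above all control signals on these 4 arrays for 18 of the 34 genes (24.5% of all genes) and below them for 6 (45.4%). The split moved with the scaling of the arrays. As deposited, the median difference over every probe set tested on these 4 arrays was -0.17 (log2). Quantile normalization put that middle value at -0.04 and gave 9 genes higher and 2 lower of 34 (13.4% and 16.5% of all genes). Scaling to a common median put it at 0.17 and gave 11 higher and 0 lower in limma (20.8% and 7.58% of all genes), with PRIM1 alone lower at an unadjusted p under 0.05 (11.9%). Scaling on spike-in controls put it at -0.40 and gave 4 higher and 4 lower (7.76% and 31.2%). MCM4, RRM2, CDC6 and FEN1 were higher in all 4 scalings. The calls of RRM1, CDC45, POLA2 and RFC3 were lost with spike-in scaling, and those of ORC5 and PRIM1 with a common median. Calls were also gained: RFC2 with quantile normalization, and RFC2, PCNA and CCNE2 with a common median, all higher. Spike-in scaling added RFC4 and UNG as lower. The tests of single genes below use the deposited scaling.

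Among licensing factors CDC6 and MCM4 rose and ORC5 fell on arrays 2 and 3. CDC6, which brings the MCM ring to the origin, had signals of 166, 415.7 and 377.4 on 8-Br-cAMP arrays 1, 2 and 3, and 247.5, 145.5 and 149.4 on control arrays 1, 2 and 3. The groups overlapped only through the number 1 arrays, where treated was below control. Over all 6 arrays its log2 difference was 0.76 (SE 0.43, adjusted p = 0.590), and on arrays 2 and 3 it rose 2.69-fold (log2 difference 1.43, SE 0.15, adjusted p = 0.000373). Its other probe set gave log2 differences of -0.33, 1.23 and 1.29 in pairs 1, 2 and 3.

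MCM4, a subunit of the helicase ring, was the one ring member whose groups did not overlap on the brightest probe set. They overlapped on each of its other probe sets. The brightest had signals of 1133, 1463 and 1477.2 after 8-Br-cAMP and 1060.4, 790.1 and 977.3 in controls. The log2 difference was 0.53 over all 6 arrays (SE 0.25, adjusted p = 0.511) and 0.74 on arrays 2 and 3 (SE 0.13, adjusted p = 0.00369). Its 4 probe sets were all higher in pairs 2 and 3, by 0.22 to 1.13 on the log2 scale, and ran from -0.46 to 0.10 in pair 1.

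The other ring subunits differed little. Signals of MCM2 were 559.2, 528 and 516.4 after 8-Br-cAMP and 570.5, 458.3 and 488.3 in controls, and those of MCM6 were 1259.6, 1362.5 and 1477.9 after 8-Br-cAMP and 1534.5, 1123.6 and 1394.8 in controls. On arrays 2 and 3 the log2 differences were 0.14 for MCM2 (95% interval -0.14 to 0.42), 0.21 for MCM5 (-0.08 to 0.49), 0.18 for MCM6 (-0.12 to 0.48), -0.04 for MCM7 (-0.28 to 0.21) and -0.12 for MCM3 (-0.50 to 0.25). None of these 5 passed in any of the 3 fits. The intervals of MCM3, MCM6 and MCM7, whose promoters are printed above, all included 0. The other MCM5 probe set differed by -0.54, -0.20 and 0.16 in pairs 1, 2 and 3, and the other MCM7 probe set by -0.68, -0.05 and -0.08. The brighter MCM7 probe set had 1564.3 on 8-Br-cAMP 1 and 1575.7 on control 1, and 870.3 to 913.6 on the other arrays.

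ORC5, a core subunit of the origin recognition complex, was lower in all 3 pairs. Its signals were 787.4, 515.5 and 562.5 after 8-Br-cAMP and 1079.3, 868.7 and 690.1 in controls, so that 8-Br-cAMP 1 lay above control 3. The log2 difference was -0.50 over all 6 arrays (SE 0.29, adjusted p = 0.608), and on arrays 2 and 3 it fell by 0.52 (SE 0.14, adjusted p = 0.0262). A further kept probe set was also lower in every pair, by 0.25 to 0.59 in size, and a probe set below the filter is not read. ORC1, the subunit that varies over the cycle, was dim, at 146.3, 55.6 and 54.6 after 8-Br-cAMP and 88.2, 64.1 and 46.3 in controls, with no common direction over pairs.

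Among origin firing genes CDC45 passed on arrays 2 and 3. CDC45, which joins the MCM ring to form the active helicase, had signals of 69.7, 237.8 and 218.8 after 8-Br-cAMP and 260.3, 117.7 and 133.5 in controls. It was thus 1.82-fold higher on treated arrays 2 and 3 (log2 difference 0.86, SE 0.18, adjusted p = 0.0088) while pair 1 differed by -1.90. Over all 6 arrays the log2 difference was -0.06 (SE 0.55, adjusted p = 0.987). CDC7, the kinase that triggers firing, had 334.8, 261.8 and 258 after 8-Br-cAMP and 542.8, 215.1 and 228.9 in controls, and did not pass (arrays 2 and 3, log2 difference 0.23, 95% interval -0.12 to 0.57). The GINS subunit genes did not pass in any of the 3 fits. GINS1 differed by -1.09, -0.17 and 0.13 in pairs 1, 2 and 3 and GINS2 by 0.52, -0.29 and -0.03. MCM10, which helps the helicase start, differed by -0.02, 0.35 and 0.22.

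Of the polymerase genes, PRIM1 fell and POLA2 rose on arrays 2 and 3, and neither passed over all 6 arrays or in the paired fit. PRIM1, the catalytic primase that lays down RNA primers, had signals of 269.3, 207 and 251.6 after 8-Br-cAMP and 425.5, 450.7 and 409.9 in controls. The groups did not overlap, and the number 1 arrays lay with the others. PRIM1 had the smallest unadjusted p of the list over all 6 arrays (log2 difference -0.83, SE 0.24, unadjusted p = 0.0103, adjusted p = 0.267) and fell by 0.91 on arrays 2 and 3 (SE 0.16, adjusted p = 0.00365). Its adjusted p was 0.0933 in the paired fit. POLA2, the accessory subunit of polymerase alpha, had 211.7, 219.5 and 231.2 after 8-Br-cAMP and 187.4, 113.7 and 165.1 in controls, again with no overlap. Its log2 difference was 0.54 over all 6 arrays (SE 0.28, adjusted p = 0.554) and 0.72 on arrays 2 and 3 (SE 0.22, adjusted p = 0.0389), and its paired adjusted p was 0.274. POLE2, the second subunit of the leading-strand polymerase epsilon, had log2 differences of -0.46, 0.04 and 0.06 in the 3 pairs.

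**Figure D3:**
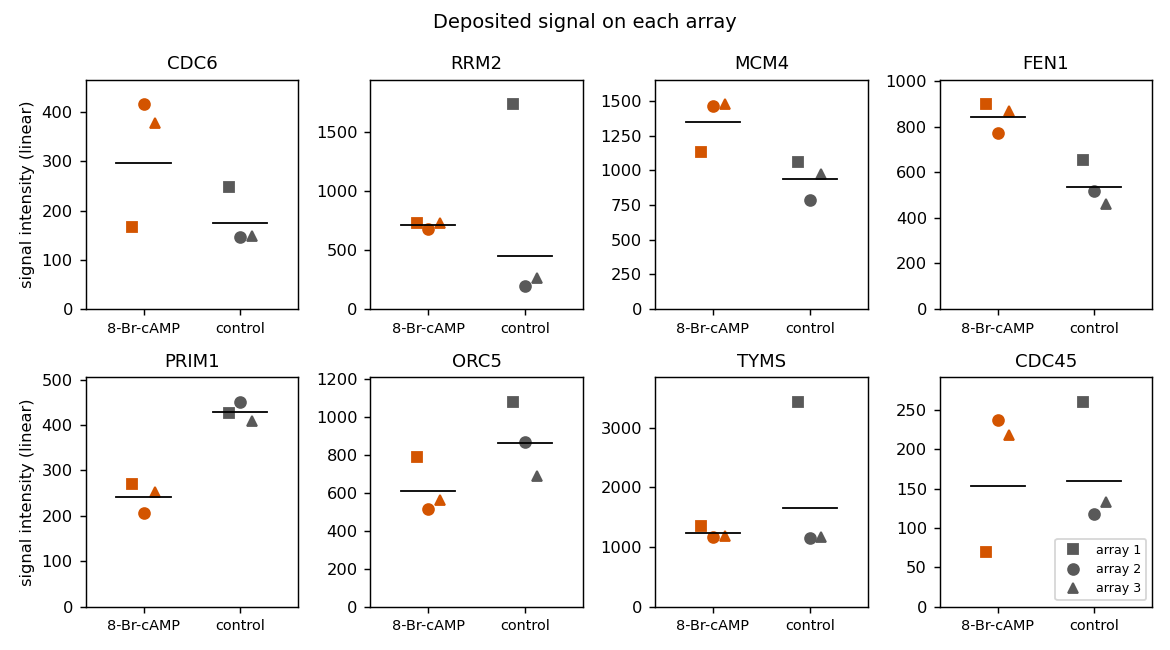
Deposited signal intensity (linear axis from 0) of 8 genes on every array, 8-Br-cAMP left and control right in each panel, with 1 symbol per array number and a line at the geometric mean of the group. Each gene is shown by its brightest probe set. PRIM1, MCM4 and FEN1 separate the groups on all arrays, while RRM2, TYMS and CDC45 have their highest signal on control 1. The groups overlap on the other MCM4 and FEN1 probe sets, which are not shown.

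The clamp and its loader gave mixed values. PCNA, the sliding clamp, had signals of 799.4, 1301.6 and 1702.9 after 8-Br-cAMP and 1526.2, 839.2 and 1286.5 in controls, and did not pass on arrays 2 and 3 (log2 difference 0.52, SE 0.21, adjusted p = 0.0950). Of the loader's small subunits, RFC3 had 139.2, 409.7 and 400 after 8-Br-cAMP and 331.3, 303.9 and 288.7 in controls, and rose 1.37-fold on arrays 2 and 3 (adjusted p = 0.0347) with -1.25 in pair 1. RFC4 was lower in all pairs and its groups did not overlap (441.2, 538 and 570.2 after 8-Br-cAMP, 883.7, 686.2 and 648.2 in controls), but its log2 difference of -0.51 did not pass (SE 0.26, adjusted p = 0.539). RFC2 was higher in all pairs, by 0.61, 0.43 and 0.45, without passing on arrays 2 and 3 (adjusted p = 0.131), and its other probe set differed by -0.23, 0.42 and 0.11. The other RFC3 probe set also rose on arrays 2 and 3 (log2 difference 0.67, adjusted p = 0.0325), with -0.81 in pair 1. RFC5 differed by -0.52, 0.02 and 0.27 in the pairs, and its other probe sets by -1.41, 0.35 and 0.45, and by -1.34, 0.05 and 0.00. The small subunits work in 1 complex. Over all 34 genes, by the brightest probe sets, no overlap across 6 arrays was seen upward for MCM4, POLA2 and FEN1 (6.32% of all genes). Downward it was seen for PRIM1 and RFC4 (13.6%).

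Among genes that finish and protect the new strands, FEN1 differed most. FEN1, the nuclease that trims Okazaki fragment flaps, had signals of 897.6, 770.7 and 869 after 8-Br-cAMP and 655.5, 515.5 and 458.6 in controls. All treated arrays were above all controls, and each pair was higher, by 0.45, 0.58 and 0.92 on the log2 scale. The log2 difference was 0.65 over all 6 arrays (SE 0.25, unadjusted p = 0.0355, adjusted p = 0.409), 0.75 on arrays 2 and 3 (SE 0.13, adjusted p = 0.00353), and its paired adjusted p was 0.135. Its second probe set was lower in pair 1 (-0.30) and higher in pairs 2 and 3 (0.65 and 0.57). There the groups overlapped, with 219.9 on 8-Br-cAMP 1 and 270 to 393.8 in controls. LIG1, the ligase that seals the fragments, was higher by 0.13, 0.37 and 0.17 in the pairs and did not pass. RPA3, a subunit of the single-strand binding protein, differed by -0.30, 0.10 and -0.03. UNG, which removes uracil from DNA, was lower in all pairs, by 0.65, 0.14 and 0.52 in size, and did not pass (log2 difference -0.44, SE 0.29, adjusted p = 0.671).

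Of the genes of nucleotide supply, RRM2 and RRM1 rose on arrays 2 and 3. RRM2, the cell-cycle-regulated subunit of ribonucleotide reductase, had signals of 727.1, 683.4 and 730.1 after 8-Br-cAMP and 1736.9, 199.7 and 262.4 in controls. The treated arrays were alike, while control 1 was 7.59-fold above the geometric mean of controls 2 and 3. Its log2 difference was -1.26 in pair 1, 1.77 in pair 2 and 1.48 in pair 3. RRM2 rose 3.09-fold on arrays 2 and 3 (log2 difference 1.63, SE 0.16, adjusted p = 0.000259), and its log2 difference over all 6 arrays was 0.66 (SE 0.76, adjusted p = 0.837). A second RRM2 probe set had the same signs in each pair. RRM1, the large subunit of the enzyme, had 1486.1, 943.6 and 881.8 after 8-Br-cAMP and 1187.4, 609.2 and 633.4 in controls, higher in every pair, and rose 1.47-fold on arrays 2 and 3 (adjusted p = 0.00755). The rise was not seen on the second kept RRM1 probe set, which differed by -0.32, -0.05 and 0.22 in the pairs and by 0.09 on arrays 2 and 3 (adjusted p = 0.683).

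The thymidylate genes did not pass on arrays 2 and 3. TYMS, the synthase that makes dTMP, had 1352.9, 1169.6 and 1182.3 after 8-Br-cAMP and 3429.7, 1149.7 and 1164.4 in controls. Without the number 1 arrays the groups were nearly equal (log2 difference 0.02, 95% interval -0.21 to 0.26), and control 1 was 2.96-fold above the other controls. TK1, the salvage kinase, had 188.7, 152.4 and 152.5 after 8-Br-cAMP and 265.7, 139.5 and 138.5 in controls, and differed by 0.13 on arrays 2 and 3 (-0.30 to 0.56).

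By their brightest probe sets, CHAF1A and the 3 G1/S regulators passed in none of the 3 fits, while a dimmer E2F1 probe set passed on arrays 2 and 3. CHAF1A, the large subunit of the chromatin assembly factor, had signals of 414.7, 302.1 and 321 after 8-Br-cAMP and 343.3, 345.3 and 325.1 in controls. Its other probe sets differed by 0.20, -0.08 and -0.09, and by -0.48, 0.03 and 0.11, in the pairs. CHAF1B was at 4.6, 45.1 and 62.4 after 8-Br-cAMP and 71.4, 59.4 and 62.1 in controls, around the filter level. It entered only a fit with no filter, where it did not pass (log2 difference -1.45, SE 0.95, adjusted p = 0.772). CCNE1 (cyclin E1) differed by 0.26, 0.31 and -0.16 in the pairs and CCNE2 (cyclin E2) by -1.57, -0.05 and 0.60. The other CCNE2 probe set differed by 0.04, -0.77 and -0.39, opposite in sign in pairs 1 and 3, and by -0.58 on arrays 2 and 3 (adjusted p = 0.0719), against 0.28 on the brighter one (adjusted p = 0.277). E2F1, the transcription factor that gives the E2F family its name, had 237, 101.9 and 109.2 after 8-Br-cAMP and 186.2, 88.3 and 95.9 in controls on its brighter probe set, 0.19 to 0.35 higher in the pairs on the log2 scale. Its dimmer probe set had 234.6, 92.2 and 102.1 after 8-Br-cAMP and 235.9, 39.8 and 36.2 in controls. That probe set rose on arrays 2 and 3 (log2 difference 1.35, adjusted p = 0.0181), while the brighter one differed by 0.20 (adjusted p = 0.558). The 2 control values of the dimmer one lay below the filter level, so its fold is imprecise.

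Probe sets of the same gene parted most on the number 1 arrays. Of 14 genes with several kept probe sets, all of a gene's probe sets had the same sign in 7 genes in pair 1, and in 11 genes in each of pairs 2 and 3. Over all 2560 genes with several kept probe sets, 54.4% had a common sign in pair 1, 64.5% in pair 2 and 70.6% in pair 3. RRM1 shows the split. One of its probe sets had 1486.1 on 8-Br-cAMP 1 and 1187.4 on control 1, above the other arrays of their groups. The other had 74.1 on 8-Br-cAMP 1 and 92.4 on control 1, where the remaining arrays had 277.6 to 325.3. The dimmest kept MCM4 probe set behaved likewise, with 34.8 on 8-Br-cAMP 1 and 42.7 on control 1 and 150.1 to 262.3 elsewhere. RRM2 differed from this, since both of its probe sets were higher on control 1 than on the mean of controls 2 and 3, by 2.36 and 2.92 on the log2 scale. All kept probe sets of MCM7, E2F1, CDC6, RFC2 and CHAF1A were also higher there, by 0.04 to 2.64. With RRM2, 6 of the 14 genes thus had a common sign on control 1, against 61.4% of all 2560 genes in either direction. Where a probe set lies along its transcript is not given in the files, so the part of RNA integrity in the gaps between probe sets was not tested.

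**Figure D4:**
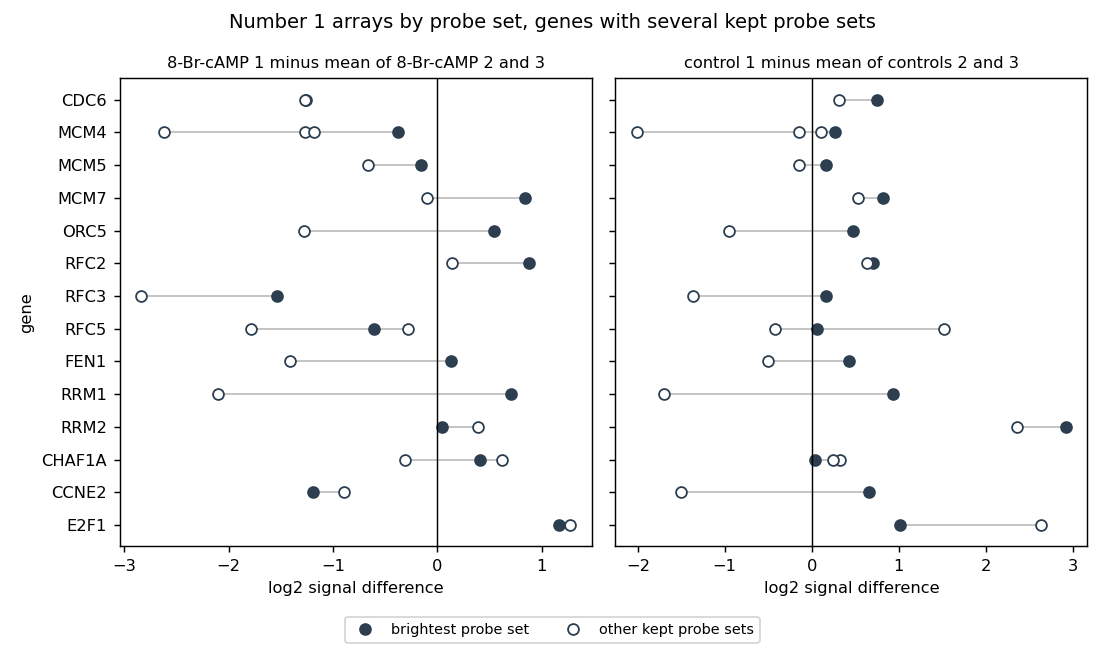
Log2 signal on 8-Br-cAMP 1 minus the mean of 8-Br-cAMP 2 and 3 (left) and on control 1 minus the mean of controls 2 and 3 (right), for the 14 genes with several kept probe sets (y axis); filled circles are the brightest probe set of a gene and open circles its others. In RRM1, ORC5 and FEN1 the probe sets of a gene fall on both sides of 0 in both panels.

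Other cell cycle lists were set beside these genes. Of 47 further replication genes 41 were measured, and 0 passed limma's test over all 6 arrays or in the paired fit. At an unadjusted p under 0.05 these fits gave 0 of them higher, and 0 and 1 lower. On arrays 2 and 3, 6 of the 41 rose and 1 fell (12.8% and 20.5% of all genes), and the median differences were -0.27, 0.09 and 0.05 in pairs 1, 2 and 3. Quantile normalization gave counts of 7 and 1, a common median 14 and 0, and spike-in scaling 5 and 3. The list of mitosis and G2/M genes had the same order of pairs at a larger size, with medians of -0.72, 0.77 and 0.74 over 52 genes. On arrays 2 and 3, 41 of these 52 rose and 0 fell (12.8% and 20.5% of all genes), and 0 were lower at an unadjusted p under 0.05 (28.9%). All 52 were higher on control 1 than on the mean of controls 2 and 3, against 49.7% of all genes. Of the 52, quantile normalization gave 41 higher (13.4% of all genes), a common median 49 (20.8%) and spike-in scaling 25 (7.76%). In each of these scalings 0 were lower, against 16.5%, 7.58% and 31.2% of all genes. The brightest of them, the CDK-binding gene CKS2, had 3899.2, 1978.8 and 2154.2 after 8-Br-cAMP and 3734.5, 924.2 and 910.6 in controls. Of 18 measured G1 regulators 2 rose (CDKN1A and CCNH) and 3 fell (CDK4, RBL2 and TFDP2) on arrays 2 and 3, genes named after their values were seen. These are 11.1% and 16.7% of the list, against 12.8% and 20.5% of all genes. The list had medians of -0.19, -0.25 and -0.18 in pairs 1, 2 and 3. CDKN1A, which encodes the CDK inhibitor p21, was the 1 gene of these 3 lists that passed in the paired fit. Differences between these lists were not tested.

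**Figure D5:**
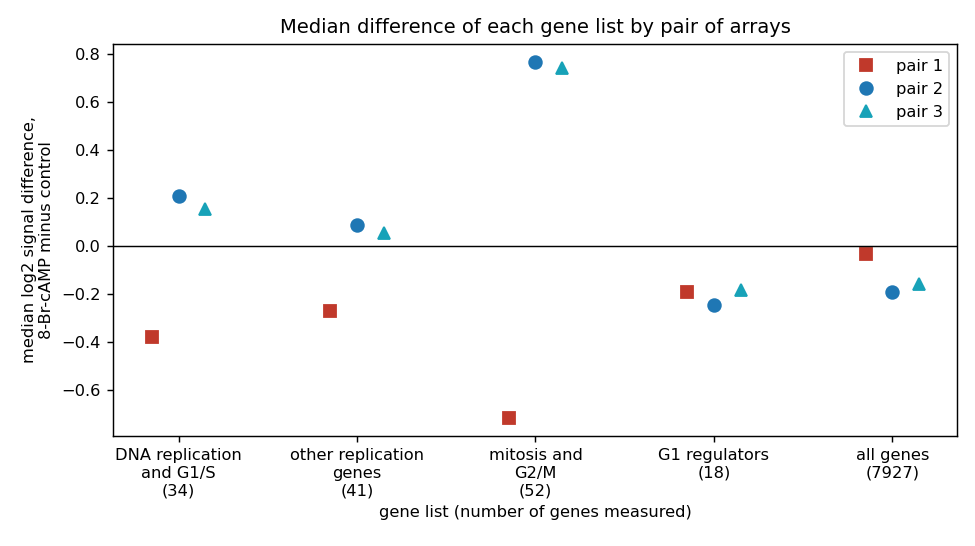
Median log2 signal difference, 8-Br-cAMP minus control (y axis), of each gene list (x axis, with the number of genes measured), with 1 symbol per pair of arrays. The DNA replication and G1/S genes lie at -0.38, 0.21 and 0.15 in pairs 1, 2 and 3, between the further replication genes and the mitosis genes in each pair.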

How the data were processed

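RNA of 6 samples of NCI-H295A cells was hybridised to Affymetrix arrays, 3 after 8-Br-cAMP and 3 controls. The values deposited by the authors are signal intensity per probe set on a linear scale, and the submitters' processing notes name GCOS 1.3, per the labels. Each array's trimmed mean signal was near 250, that is, arrays were scaled to a common mean, so a difference is relative to the whole array. Values were taken to log2, 62 control probe sets were left out, and probe sets with a mean log2 signal at or below the 40th percentile were not tested. Genes were named from the platform annotation. Groups were compared with limma 3.58.1 in R 4.3.3 (lmFit, eBayes with an intensity trend, two-sided), with Benjamini-Hochberg adjustment over all 13329 kept probe sets and a threshold of 0.05. The code was tested on simulated data.

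Array numbers were taken as pairs because every same-numbered correlation of deviations was above 0.1, although 8-Br-cAMP 2 correlated more with control 3 (0.547) than with control 2. Arrays 2 and 3 also passed this limit across numbers, so it cannot decide how these arrays pair. A gene was named by its brightest kept probe set, and other lists by counts, medians and their brightest genes. The alternatives were other scalings, filters, floors, pseudocounts, variance settings, the replicate block, arrays left out, the dimmest probe set and a rule of 2-fold with unadjusted p under 0.05. Members and lists were chosen with earlier results of these data known. Promoter sequences are from RefSeq (GRCh38.p14).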

Additional observations from a re-analysis of the deposited data

How the results depend on the processing

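Over all 6 arrays limma called 0 probe sets, and 17 after quantile normalization, 17 with a common median, 14 with spike-in scaling, 18 with the filter at the 60th percentile, 23 with a floor, 26 with a pseudocount of 16 and 880 by the rule of 2-fold and unadjusted p under 0.05. In the paired analysis the replicate block called 428 probe sets, 337 with quantile normalization, 142 with a common median and 1064 with spike-in scaling, and it called 0 members except PRIM1, 1 gene lower, with spike-in scaling. Leaving out arrays gave 0 to 4103 probe sets, 0 to 8 members higher and 0 to 2 members lower. The highest counts came without both number 1 arrays, while 285 probe sets were called without 8-Br-cAMP 1 alone and 58 without control 1 alone. On arrays 2 and 3, quantile normalization gave 3693 probe sets with 9 members higher and 2 lower, a common median 3624 with 11 higher, and spike-in scaling 4825 with 4 higher and 4 lower. The members' median log2 difference of 0.02 became -0.35 with spike-in scaling, with or without the replicate block, and 0.51 on arrays 2 and 3 with a common median. The causes of these moves were not tested.

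Signs here are set against the fit of all 6 arrays. After quantile normalization, the log2 differences that changed sign were MCM6 -0.055, PCNA -0.017, TK1 0.11, CDC45 0.050, POLE2 0.037, RFC5 0.022, CDC7 0.056. With a common median, the log2 differences that changed sign were MCM7 0.20, TK1 0.15, CDC45 0.17, POLE2 0.10, RFC3 0.11, RFC5 0.15, RPA3 0.15, CDC7 0.15. With spike-in scaling, the log2 differences that changed sign were MCM2 -0.29, MCM5 -0.27, MCM6 -0.35, MCM10 -0.19, PCNA -0.34, E2F1 -0.12, CCNE1 -0.23, GINS2 -0.30, ORC1 -0.12, LIG1 -0.15, CHAF1A -0.35. Without both number 1 arrays and after quantile normalization, the log2 differences that changed sign were TK1 0.39, CCNE2 0.41, CDC45 1.10, GINS1 0.094, POLE2 0.24, RFC3 0.56, RFC5 0.24, CDC7 0.39. Without these arrays and with a common median, the log2 differences that changed sign were MCM3 0.22, MCM7 0.30, TYMS 0.37, TK1 0.48, CCNE2 0.62, CDC45 1.21, GINS1 0.32, POLE2 0.39, RFC3 0.79, RFC4 0.074, RFC5 0.49, UNG 0.013, RPA3 0.38, CDC7 0.57. Without them and with spike-in scaling, the log2 differences that changed sign were MCM2 -0.091, MCM5 -0.028, MCM6 -0.052, E2F1 -0.036, CCNE1 -0.15, CCNE2 0.043, CDC45 0.63, GINS2 -0.39, ORC1 -0.22, RFC3 0.22, CHAF1A -0.34. With the dimmest kept probe set, the log2 differences that changed sign were MCM5 -0.19, RRM1 -0.049, RFC3 0.18, CHAF1A -0.11. The replicate block left these values as they were under each scaling. Leaving out arrays gave log2 differences of MCM6 -0.10 to 0.18, MCM7 -0.31 to 0.24, PCNA -0.26 to 0.52, TYMS -0.70 to 0.091, TK1 -0.23 to 0.24, E2F1 -0.14 to 0.59, CCNE1 -0.10 to 0.36, CCNE2 -0.81 to 0.28, CDC45 -0.59 to 0.86, GINS2 -0.50 to 0.41, ORC1 -0.22 to 0.50, POLE2 -0.21 to 0.048, RFC3 -0.41 to 0.45, RFC5 -0.25 to 0.15, LIG1 -0.080 to 0.57, CHAF1A -0.12 to 0.13, RPA3 -0.28 to 0.23, CDC7 -0.32 to 0.35. CDC6, MCM4, RRM2, FEN1, POLA2, RFC2, ORC5 and PRIM1 kept their direction under each alternative run.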
